A study of Mus musculus with 65 samples.

Results

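Msmo1, Stard4 and Mvk, a pair of enzymes of cholesterol synthesis and a carrier of cholesterol, were followed in the spinal cord of 65 C57BL/6 mice. All features that the platform annotation gives to any of the 3 genes were taken, which were 3 of the 8448 features of the B filter of a nylon mouse cDNA array, 1 for each gene, and 0 further features listed any of them beside another symbol. Caloric restriction (CR, with full feed up to 13 weeks and then stepwise less, down to 60% of it) was given to 8 mice sampled at 6 months, 10 at 16 months and 7 at 24 months. The ad libitum (AL) diet was given to 10 juveniles, aged from 17 to 44 days, and to 10 mice at each of the 3 adult ages. Mice called 6 months old had lived 169 to 194 days, those called 16 months 472 to 499 days and those called 24 months 673 to 743 days, with every CR male at the oldest stage (n = 3) at 673 days. The mice were 31 males and 34 females of 1 inbred strain, with 1 array each. The methods describe 1 colony and single housing for mice of 6, 16 and 24 months, and they list no juveniles. The values are Z scores: in each array the features average 0 and their SD is 1, and differences are given in these units.

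Cholesterol does not cross from blood into the nervous system in any useful amount, and the brain and spinal cord therefore make their own from acetyl-CoA. Oligodendrocytes need most of it while myelin is laid down after birth, and later astrocytes supply neurons in lipoproteins. When cells lack sterol, the transcription factor SREBP-2 is released from the endoplasmic reticulum and turns on the genes of synthesis and uptake together, usually beside the factors NF-Y and Sp1.

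Mvk, on chromosome 5 (positions 114444264 to 114460591, GRCm38.p6), encodes mevalonate kinase, which phosphorylates mevalonate early in the pathway. Msmo1, on chromosome 8 (64718123 to 64733578), encodes methylsterol monooxygenase 1, which oxidizes the methyl groups at carbon 4 of the sterol ring late in the pathway. Stard4 encodes a soluble protein that carries cholesterol between membranes and to the endoplasmic reticulum. All 3 are known targets of SREBP-2. The promoters of both enzymes are shown because they carry the letters of the factors that act with SREBP-2. The stretches are the 250 bases before the start site in the RefSeq promoter table (GRCm38.p6), 5′ to 3′ on the strand of the gene, with the NF-Y box (CCAAT, or ATTGG on the other strand) in capitals. They cover chr5:114444019-114444268 on the plus strand for Mvk and chr8:64733579-64733828 on the minus strand for Msmo1. The Mvk stretch runs past the gene start given above (114444264), and distances are counted from the end of the stretch.
Mvk promoter: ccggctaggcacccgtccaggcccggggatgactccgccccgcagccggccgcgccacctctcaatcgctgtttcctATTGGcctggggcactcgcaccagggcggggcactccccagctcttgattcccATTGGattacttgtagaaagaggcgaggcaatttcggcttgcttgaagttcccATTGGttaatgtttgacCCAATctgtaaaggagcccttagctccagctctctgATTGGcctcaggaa
Msmo1 promoter: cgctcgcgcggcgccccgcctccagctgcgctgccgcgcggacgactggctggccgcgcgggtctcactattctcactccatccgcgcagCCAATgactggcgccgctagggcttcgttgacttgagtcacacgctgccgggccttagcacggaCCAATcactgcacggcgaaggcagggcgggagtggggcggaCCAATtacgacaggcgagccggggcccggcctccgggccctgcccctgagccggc
The Mvk stretch held 5 NF-Y boxes. Those written ATTGG, at 173, 120, 67 and 14 bases before the start, were spaced by 53 bases, and the 1 written CCAAT lay at 50 bases. The Msmo1 stretch held 3 boxes, at 160, 96 and 55 bases. At least 1 box was found in 33.8% of the 32851 promoters of the same length, at least 3 in 2.79% and at least 5 in 0.213%. Both stretches also held 2 GC boxes (GGGCGG, either strand), a number reached by 16.7% of all promoters. The sterol element core TCACCCCAC was found on neither strand of either stretch, and it was present in 0.496% of all promoters. Matches are a description of these letters and the arrays do not measure binding. As the stretches are shown for holding these letters, the shares are given for scale only. No stretch is shown for Stard4.

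The marker lists are given only as spots above or below the array mean, which does not settle the tissue, since spots of different clones are not set against each other. Above it lay 3 of 4 features of neurons (Nefl at 1.07 and 0.896, Uchl1 at 0.533, with Slc17a6 at -0.292), 3 of 5 of astrocytes (Gja1 at 1.13, with Slc1a3 at -0.388 and -0.780) and Gsn (0.259), the 1 measured gene for oligodendrocytes and myelin. Above it also lay 15 of 17 features of blood (highest Hba-a2, 1.66), 9 of 11 of meninges and matrix (highest Col3a1, 1.73) and Mylpf of skeletal muscle (0.303), while Pmp22 of Schwann cells lay at -1.21. The major myelin genes were not analysed here.

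The arrays were not of 1 kind. Without arrays 31 to 33, the first principal component of all features held 36.0% of the variance and divided the arrays into a first set of 41 and a second set of 21, which were arrays 22 to 30, 34 to 43 and 66 to 67. The sets are not named by the labels and were found from the values. Arrays 31 to 33, all from mice of 6 months (CR for arrays 31 and 32, AL for array 33), stood apart from both and were counted with the second set, between arrays of which they lie. The second set held 6 of 10 AL mice of 24 months but 2 of 10 AL mice of 6 months, and 1 of these was on array 33. The array numbers further ran through the groups in 5 rounds, each starting with juveniles and ending with mice of 24 months. Round 4 broke the order of ages on arrays 49 to 52, and CR mice mostly came before AL mice of their age. Age, and in part diet, can thus hardly be told apart from place within a round. The methods state that samples were processed in balanced batches, and the sources used here do not say which samples shared one. Differences fitted with the set as a covariate and without arrays 31 to 33 (62 arrays) are called set-adjusted and stand beside those of the 65 arrays.

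Stard4 lies on chromosome 18 (33199138 to 33213862, GRCm38.p6). All 3 features lay below the array mean in 65 of 65 mice. Mvk had a mean of -0.853 ± 0.157 (SD, n = 65), Msmo1 of -0.289 ± 0.137 and Stard4 of -1.12 ± 0.215. A score below 0 says that the spot was dimmer than the average spot, so the 3 genes are not ranked by it. The study kept only genes of average intensity above 0, taken here as a mean Z above 0. By that rule none of the 3 would have been kept, and 4107 of all 8448 features had a mean Z above 0.

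**Figure D1:**
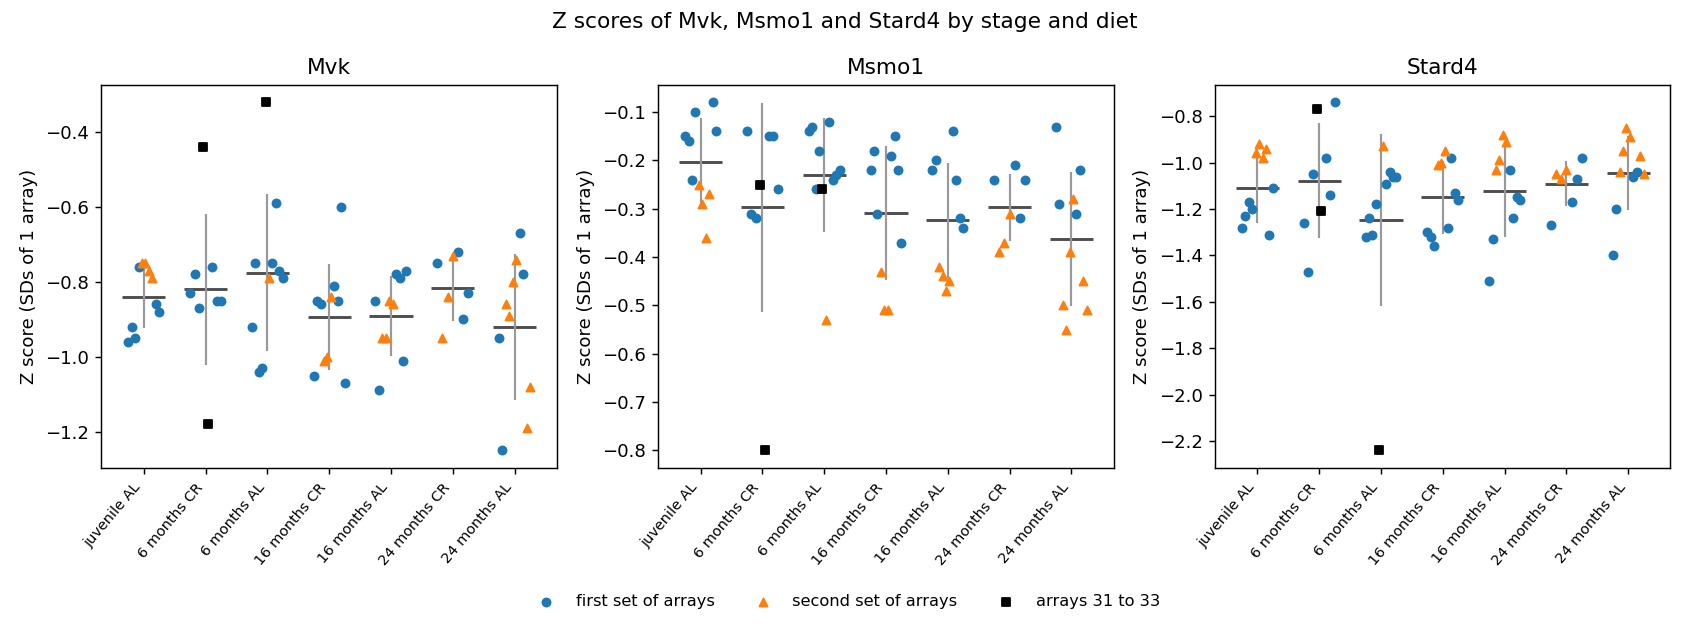
Z score (SDs of 1 array) of each mouse in the 7 groups of stage and diet, with the group mean (horizontal bar) and SD (vertical line). Circles are arrays of the first set, triangles arrays of the second set and squares arrays 31 to 33; in all 6 groups that have both, the triangles average lower than the circles in Msmo1 and higher in Stard4, and the groups overlap for all 3 genes.

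The groups overlapped widely in Mvk. Its group means ran from -0.921 ± 0.195 in AL mice of 24 months (n = 10) to -0.775 ± 0.211 in AL mice of 6 months (n = 10), a span close to 1 SD of a group. Msmo1 had its highest mean in juveniles, -0.204 ± 0.0911 (n = 10), and its lowest in AL mice of 24 months, -0.363 ± 0.139 (n = 10). Stard4 ran from -1.25 ± 0.371 in AL mice of 6 months (n = 10) to -1.05 ± 0.159 in AL mice of 24 months (n = 10). The low end of Stard4 rested on 1 mouse, an AL male of 6 months at -2.24 on array 33, and without it the 9 others averaged -1.14 ± 0.133.

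In Msmo1 and Stard4 the sets of arrays lay farther apart than the means of any pair of the 7 groups of stage and diet. Msmo1 averaged -0.413 ± 0.0926 in the second set (n = 21) and -0.214 ± 0.0731 in the first (n = 41), and 14 of the 21 lay below every array of the first set. Stard4 averaged -0.971 ± 0.0617 in the second set and -1.18 ± 0.150 in the first, and 21 of 21 lay above the median of the first. In all 6 groups with mice in both sets Msmo1 was lower in the second set (by -0.104 to -0.340) and Stard4 higher (by 0.0725 to 0.284). Mvk hardly differed, with -0.876 ± 0.122 in the second set and -0.857 ± 0.133 in the first, lower in 4 of the 6 groups and higher in 2. The sets were found from all features, by a component that held 36.0% of the variance, so these values are a description with no test. How many other features lay apart as far was not counted, so the gap is not read as particular to these genes. After set adjustment the residual SD of Msmo1 was 0.0755, against 0.139 over 65 arrays, that of Stard4 0.126, against 0.216, and that of Mvk 0.137, against 0.161. Within the first set Stard4 also differed between rounds, with a mean of -1.31 ± 0.0836 in the first (n = 12) and of -1.09 ± 0.149 in the last (n = 10).

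**Figure D2:**
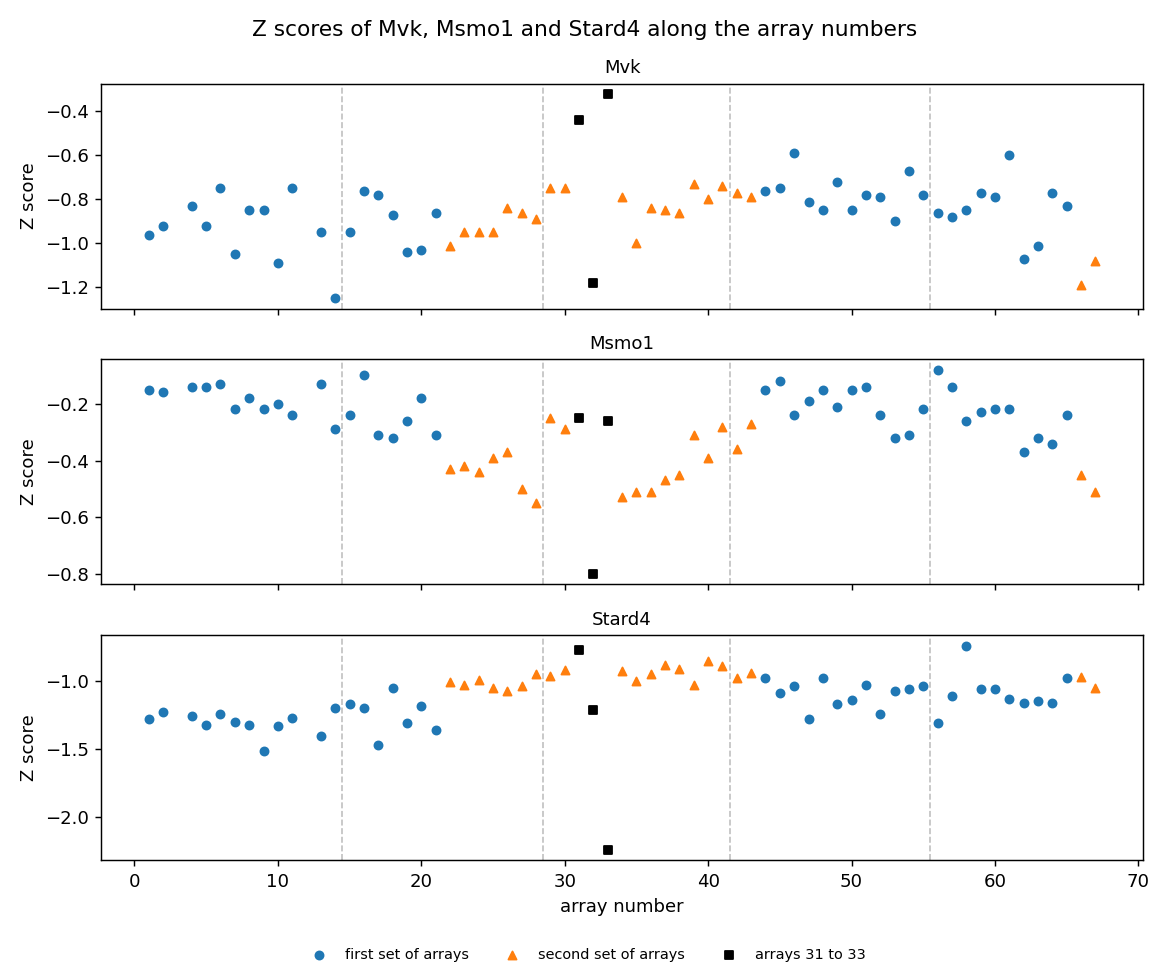
Z score of each mouse against its array number, with symbols as in the plot by stage and diet; dashed lines mark the start of a round. Msmo1 was low and Stard4 high in the second set, arrays 22 to 43 and 66 to 67, and arrays 31 to 33 scattered widely, with Stard4 at -2.24 on array 33.

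From 6 to 24 months on the AL diet, none of the 3 genes passed the adjusted threshold (adjusted p under 0.05, limma with Benjamini-Hochberg adjustment over 8448 features), which 0.071% of features passed. Msmo1 had a lowest, median and highest Z of -0.55, -0.35 and -0.13 at 24 months, against -0.53, -0.225 and -0.12 at 6 months. The ranges nearly coincided and the median was lower at 24 months. The difference was -0.132 (95% CI -0.257 to -0.00710, adjusted p = 0.368) over 65 arrays and -0.0414 (-0.117 to 0.0343, adjusted p = 0.997) set-adjusted. Stard4 had -1.40, -1.04 and -0.85 at 24 months, against -2.24, -1.135 and -0.93 at 6 months. Here the top of the ranges nearly coincided, and the bottom at 6 months was the mouse of array 33. The difference was 0.202 (0.0119 to 0.392, adjusted p = 0.366), it was 0.0975 without that mouse, and set-adjusted it was -0.0102 (-0.130 to 0.110). Mvk had -1.25, -0.875 and -0.67 at 24 months, against -1.04, -0.78 and -0.32 at 6 months. Both ends and the median were lower at 24 months, and the top at 6 months was again the mouse of array 33. The difference was -0.146 (-0.289 to -0.00316, adjusted p = 0.384), without that mouse -0.091, and set-adjusted -0.0915 (-0.222 to 0.0388). All 3 unadjusted p were under 0.05, as were those of 12.8% of all features, and as the genes were chosen with these differences known nothing is read from that count. Within the first set, with 4 mice of 24 months and 8 of 6 months, Msmo1 differed by -0.0475, Stard4 by -0.0125 and Mvk by -0.0825. Within the second set, with 6 mice of 24 months and 1 of 6 months, the differences were 0.0921, -0.0239 and -0.114, for Msmo1, Stard4 and Mvk, so that Mvk alone had in both sets the direction seen over 65 arrays.

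Neither step of adult life stood out on the AL diet. At 16 against 6 months, which 0.0237% of features passed, Msmo1 differed by -0.093 (95% CI -0.218 to 0.0319), Stard4 by 0.124 (-0.0661 to 0.314) and Mvk by -0.115 (-0.258 to 0.0278). Set-adjusted, these were -0.0415, -0.0451 and -0.0603, so that Stard4 turned sign, and without the mouse of array 33 Stard4 differed by 0.0195 and Mvk by -0.06. At 24 against 16 months, which 0% of features passed, Msmo1 differed by -0.039, Stard4 by 0.078 and Mvk by -0.031 (lowest adjusted p 0.959, limma). Set-adjusted, Msmo1 differed at that step by 0.000154 (-0.0704 to 0.0707), Stard4 by 0.0349 and Mvk by -0.0312.

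Juveniles were the group with the least negative Msmo1. Before adjustment for the sets, 6 months differed from juveniles by -0.027 in Msmo1 (95% CI -0.152 to 0.0979), by -0.137 in Stard4 (-0.327 to 0.0531) and by 0.064 in Mvk (-0.0788 to 0.207), where 0.13% of features passed. Set-adjusted, Msmo1 differed by -0.0785 (-0.152 to -0.00509, adjusted p = 1.00), Stard4 by 0.0321, with its sign turned, and Mvk by 0.00927. Without the mouse of array 33 Stard4 differed by -0.0325 and Mvk by 0.009, and without the AL female of array 34 Msmo1 differed by 0.00675. Within the first set the means of Msmo1 on the AL diet were -0.145 ± 0.0558 in juveniles (n = 6), -0.190 ± 0.0548 at 6 months (n = 8), -0.243 ± 0.0753 at 16 months (n = 6) and -0.237 ± 0.0814 at 24 months (n = 4). The CR mice of that set had -0.222 ± 0.0847 at 6 months (n = 6), -0.234 ± 0.0781 at 16 months (n = 7) and -0.253 ± 0.0472 at 24 months (n = 4). In the second set the AL means were -0.293 ± 0.0479 in juveniles (n = 4), -0.530 in the single mouse of 6 months, -0.445 ± 0.0208 at 16 months (n = 4) and -0.447 ± 0.0985 at 24 months (n = 6). Juveniles thus had the highest mean of Msmo1 in each set. In the second set without arrays 31 to 33 they overlapped only the mice of 24 months. Arrays 31 and 33, from mice of 6 months, lay at -0.25 and -0.26, within the range of these juveniles (-0.36 to -0.25).

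The comparison of all adult AL mice with juveniles was chosen after these values were seen. Over 65 arrays, where 0.189% of features passed, Msmo1 had a lowest, median and highest Z of -0.55, -0.27 and -0.12 in adult AL mice (n = 30), against -0.36, -0.20 and -0.08 in juveniles (n = 10), and the difference was -0.102 (95% CI -0.204 to -2.11e-05, adjusted p = 1.00). Set-adjusted it was -0.106 (-0.164 to -0.0487, adjusted p = 0.0569), where 0.793% of features passed. With the round as a further covariate it was -0.105 (SE 0.0270, adjusted p = 0.0336), where 1.05% passed, and over the other settings tried the adjusted p ran from 0.0569 to 1.00. The difference was -0.0786 within the first set and -0.184 within the second. Where a round had juveniles and adult AL mice in the same set, the adults averaged lower in 4 of 4 rounds, by -0.03, -0.05, -0.154 and -0.168 in rounds 1, 2, 3 and 5. Stard4 (0.0137 set-adjusted) and Mvk (-0.0413) had intervals that included 0. As juveniles opened each round, age and place in the round cannot be told apart for this difference.

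Markers of some other cell types moved in the same comparison. Gsn, an actin-severing protein and the 1 of 16 genes of the list for oligodendrocytes and myelin that was measured, had -0.76, 0.275 and 0.44 in adult AL mice, against 0.31, 0.475 and 0.64 in juveniles, and it fell by 0.198 set-adjusted (adjusted p = 0.00655). In the set-adjusted fit, where 0.793% of all features passed, 3 of the 7 features of the list for microglia and macrophages passed. Each was higher, both features of the lysosomal protease Ctsd (0.166 and 0.240) and the complement gene C1qa (0.189). Of the 5 features of the astrocyte list 1 passed set-adjusted, the protease inhibitor Cst3, which was higher (0.154). On the 65 arrays 0 features of these lists passed the adjusted threshold in limma, and 3 were under an unadjusted p of 0.05. Of the lists for neurons, oligodendrocyte progenitors, blood, meninges and matrix, Schwann cells and skeletal muscle, 0 features passed set-adjusted. Bcas1, the 1 measured gene of the progenitor list, differed by -0.000667 over 65 arrays and by 0.0275 set-adjusted. The mean score of the microglia and macrophage list ran from -0.566 to 0.336 in adult AL mice and from -0.0171 to 0.0629 in juveniles, and that of the astrocyte list from -0.308 to 0.378 in adult AL mice and from 0.162 to 0.38 in juveniles. The part of these cells in the difference of Msmo1 was not tested, and in tissue RNA fewer cells of a type and less RNA per cell cannot be told apart. Among juveniles, where 0% of features passed, those of over 25 days and those under 25 days (n = 5 each) differed by 0.0633 in Msmo1 (-0.118 to 0.245), -0.0958 in Stard4 and -0.0942 in Mvk, with intervals that included 0.

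Caloric restriction was set against the AL diet at each adult age. None of the 3 genes passed the adjusted threshold at any age. At 6 months, where 0.0237% of features passed, Stard4 had a lowest, median and highest Z of -1.47, -1.095 and -0.74 in CR mice, against -2.24, -1.135 and -0.93 in AL mice. The medians nearly coincided, and the CR mouse at -0.74 lay above every AL mouse. The difference was 0.160 (95% CI -0.0456 to 0.365, adjusted p = 0.701) over 65 arrays, 0.0552 without the AL mouse of array 33 and 0.00778 (-0.128 to 0.144) set-adjusted. Msmo1 differed by -0.0543 at that age, by 0.00392 without the CR female of array 32 and by -0.0196 set-adjusted. Mvk differed by -0.019, and by 0.00884 set-adjusted. At 16 months, where 0% of features passed, the differences were 0.015 in Msmo1, -0.026 in Stard4 and -0.004 in Mvk, each smaller than the SD within its groups, and -0.00458, -0.00447 and -0.00391 set-adjusted.

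At 24 months Mvk had the widest gap between the diets of the 3 genes. It had -0.95, -0.83 and -0.72 in CR mice (n = 7), against -1.25, -0.875 and -0.67 in AL mice (n = 10), so that the CR mice lay within the range of the AL mice. The difference was 0.105 (95% CI -0.0532 to 0.264, adjusted p = 0.708), where 0% of features passed. It was 0.105 set-adjusted, 0.1125 within the first set and 0.0793 within the second, so its direction did not depend on the set. Msmo1 differed by 0.068 and Stard4 by -0.0554 at 24 months, and set-adjusted by 0.0321 and -0.0159. Averaged over the 3 ages, where 0.0237% of features passed, CR differed from AL by 0.00956 in Msmo1 (-0.0672 to 0.0863), by 0.0261 in Stard4 (-0.0907 to 0.143) and by 0.0274 in Mvk (-0.0604 to 0.115). Set-adjusted, the interval was -0.0428 to 0.0481 in Msmo1, -0.0763 to 0.0679 in Stard4 and -0.0414 to 0.115 in Mvk.

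Age was also followed within CR mice. At 24 against 6 months, where 0.0237% of features passed, Msmo1 differed by -0.00967 (95% CI -0.157 to 0.138), Stard4 by -0.0131 (-0.238 to 0.212) and Mvk by -0.0218 (-0.191 to 0.147). Set-adjusted, these were 0.0103, -0.0339 and 0.00504, so that Msmo1 and Mvk turned sign. The change with age was compared between the diets directly. The diet difference of the change was 0.122 in Msmo1, -0.215 in Stard4 and 0.124 in Mvk (adjusted p = 0.999 each, limma), and 0.0517, -0.0237 and 0.0965 set-adjusted, so that the change with age was not shown to differ between CR and AL. These comparisons share their mice with those above.

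**Figure D3:**
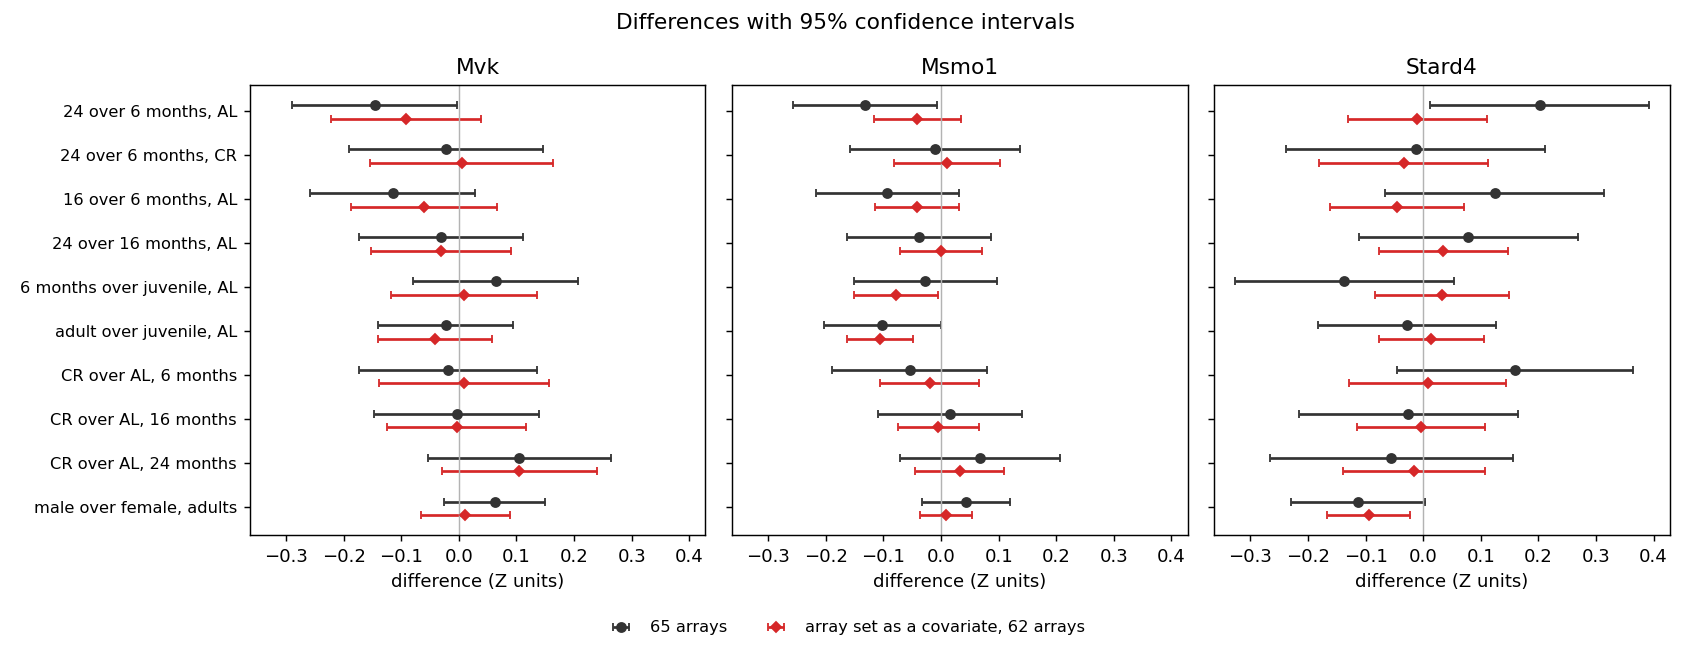
Difference in Z score (circle) with its 95% confidence interval for each comparison, later age, CR or males minus earlier age, AL or females, over 65 arrays and set-adjusted. For Stard4 the age and diet differences of the AL mice of 6 months lie nearer to 0 after set adjustment, and adult against juvenile Msmo1 lies at -0.102 on the 65 arrays and at -0.106, with a narrower interval, set-adjusted.

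Of the 3 genes Stard4 had the widest gap between the sexes, and it did not pass the adjusted threshold. Adult males had a lowest, median and highest Z of -2.24, -1.135 and -0.77 (n = 26), against -1.33, -1.05 and -0.74 in females (n = 29). Males lay lower at each of these points, with wide overlap. The difference was -0.113 (95% CI -0.230 to 0.00334, adjusted p = 0.984) over 65 arrays, and -0.0947 set-adjusted (-0.167 to -0.0229, adjusted p = 0.913), where 0% of all features passed on the 65 arrays. It was -0.0786 without the male of array 33. The difference was -0.118 within the first set and -0.00087 within the second. Males differed from females by 0.0429 in Msmo1 and by 0.0624 in Mvk, and set-adjusted by 0.00851 and 0.0116, with intervals that included 0.

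The other genes of sterol handling were counted by role in AL mice of 24 against 6 months. Over all features the median difference was -0.002 (interquartile range -0.072 to 0.061), and 6.63% were higher and 6.16% lower at an unadjusted p under 0.05. Of the 22 genes of synthesis 3 were measured, Msmo1, Mvk and Ggps1, which makes geranylgeranyl diphosphate on a side branch. Their 4 features were all lower, with a median of -0.102 (-0.0664 set-adjusted), and the 2 under an unadjusted p of 0.05 were Msmo1 and Mvk themselves. The 2 features of Ggps1 differed by -0.063 and -0.072. The enzymes between Mvk and Msmo1 in the pathway, and HMG-CoA reductase, were not analysed here.

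Of the 32 genes of uptake and transport 13 were measured, in 19 features, of which 13 were higher and 6 lower, with a median of 0.097, and 4 higher and 2 lower at an unadjusted p under 0.05. The median was 0.00358 set-adjusted. The gene of this list with the smallest p was Osbpl1a, an oxysterol-binding protein relative of late endosomes, at -0.469 (SE 0.162, adjusted p = 0.328) and -0.235 set-adjusted (adjusted p = 0.997). Vldlr, a receptor for lipoproteins and reelin, differed by -0.248 in the feature with the smaller p and by -0.145 in the other, and set-adjusted by -0.0102 and -0.0169. Scp2, sterol carrier protein, differed by 0.262 in the feature with the smallest p and by 0.014 and 0.058 in the others. The 3 features of Scp2 thus did not give 1 value, and set-adjusted they lay at 0.0102, -0.0118 and 0.0282. Of the 17 genes of efflux, lipoproteins and oxysterols 3 were measured (median 0.056), and of the 26 regulators 9 (median 0.031), with 0 features under an unadjusted p of 0.05 in either. Over the 4 lists, 4 of 35 features were higher and 4 lower at that p, and 0 passed the adjusted threshold in limma. With set adjustment 0 were higher and 1 lower. Msmo1, Mvk and Stard4 were among the 8, and the lists were drawn up with these results known.

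**Figure D4:**
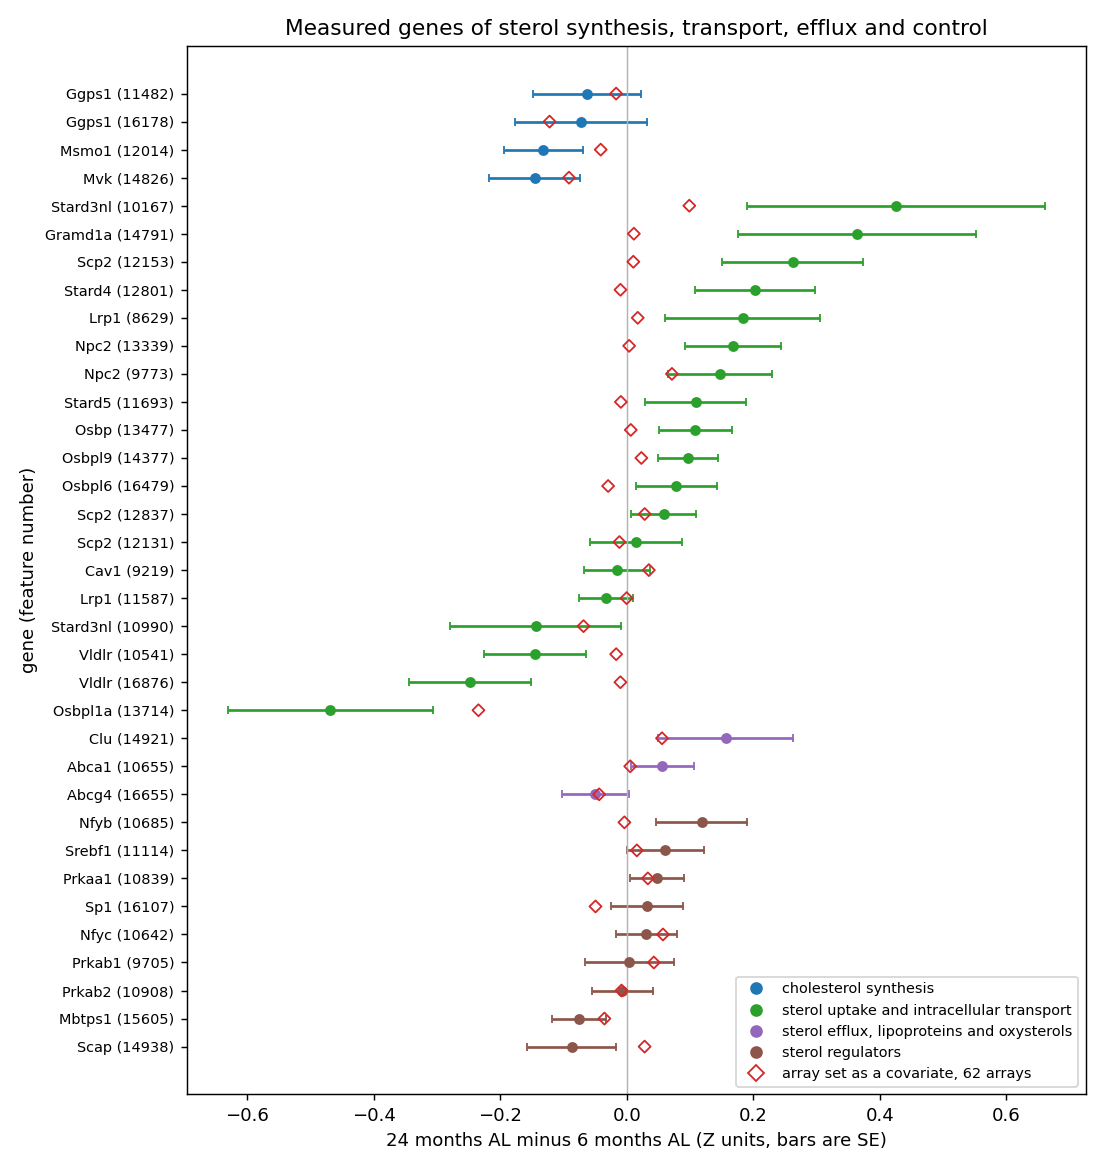
Difference in Z score, 24 minus 6 months on the AL diet, of every measured feature of the 4 lists of sterol genes, over 65 arrays (circles, bars are SE) and set-adjusted (open diamonds). The 4 synthesis features lie below 0 on the 65 arrays, and the median over the 4 lists is 0.032 on the 65 arrays and -0.000393 set-adjusted.

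Variation between mice of 1 group was compared across features, after removing group means and the set, over 62 arrays. The correlation was 0.252 between Msmo1 and Mvk, 0.314 between Stard4 and Mvk and -0.0824 between Msmo1 and Stard4. In the scores of the 65 arrays, with nothing removed, these correlations were 0.309, -0.0957 and -0.304, so that Stard4 and Mvk turned sign. Within each set of the 62 arrays, also with nothing removed, Stard4 and Mvk had 0.273 (first set) and 0.399 (second set). Their positive sign within the sets thus did not need the removal of group means. The 65 arrays also include array 33, at -2.24 in Stard4 and -0.32 in Mvk, and its part in the negative value was not tested. Msmo1 and Mvk had 0.149 within the first set and 0.539 within the second. These are descriptions, since arrays share their processing. For scale, the 99th percentile of the correlation with all named features was 0.386 (Msmo1), 0.543 (Stard4) and 0.518 (Mvk), and no pair of the 3 genes reached it. The feature most like Msmo1 was Lmtk2, a membrane-anchored kinase (r = 0.722), followed by Dhx9 (0.514) and Hnrnpul1 (0.494). Those most like Stard4 were Grik1, a kainate receptor subunit (0.677), Luc7l (0.647, but -0.237 in the scores of the 65 arrays) and Zbtb45 (0.640). Those most like Mvk were Thap7 (0.656), Mrpl4 (0.653) and Hilpda (0.637). None of these is a gene of sterol synthesis. Of the 22 listed genes of synthesis, however, only 3 were measured, Msmo1, Mvk and Ggps1, so nothing is read from that absence.

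Likeness followed the place of a feature in the array's numbering. Features 22, 44 or 66 positions apart had a median correlation of 0.383 to 0.555, other distances up to 66 positions one of 0.154 to 0.437, and features 4001 to 4066 positions apart one of -0.164 to -0.0468. Lmtk2 lies 44 positions from Msmo1. The 6 features at multiples of 22 positions within that reach had a median correlation of 0.346 with Msmo1, of -0.116 with Stard4 and of 0.0254 with Mvk, higher for Msmo1 than for the other two.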

How the data were processed

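Spinal cord cDNA labelled with a radioisotope was hybridised to nylon cDNA filters and read with ArrayPro, 1 array per mouse. The values used are Z scores that the authors deposited, made within each array; whether intensities were logged first, and how background was treated, are not given in the sources used here, and no depth exists, so the number of arrays limits the precision. Group means of 14 groups of stage, diet and sex were fitted with limma 3.58.1 (R 4.3.3) to all 8448 features, with equal weight to each sex and Benjamini-Hochberg adjustment over all features at 0.05. The fit was tested on simulated data. The 3 genes and the gene lists were chosen with earlier results of these data known. Named list genes were those with the smallest p. Features were named from the platform annotation, with 4875 features of 1 symbol, 224 of several and 3349 of none. The design text counts 67 mice and 65 were analysed here; array 27 carries a description that differs from its other labels and was left out as an alternative. Mice were taken as replicates.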

Additional observations from a re-analysis of the deposited data

Results flagged for a closer look

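In groups of 4 or 5 mice of 1 stage, diet and sex, 36 group values (12 groups, 3 genes) were examined for a mouse far from the others, where chance flags about 1 in 20, and 4 were found. The CR female of 6 months on array 32 lay low in Msmo1 (-0.8, others -0.32 to -0.14) and in Mvk (-1.18, others -0.87 to -0.76). The AL male of 6 months on array 33 lay low in Stard4 (-2.24, others -1.32 to -1.06). An AL female of 6 months on array 34, the 1 AL mouse of that age left in the second set without arrays 31 to 33, lay low in Msmo1 (-0.53, others -0.24 to -0.13). The gap to the nearest mouse took up 0.727, 0.738, 0.780 and 0.725 of the group's range in these, against a critical 0.710. Of the 4 values, 3 come from arrays 31 to 33.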

How the results depend on the processing

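No gene of the 3 passed the adjusted threshold in any of 51 results (17 comparisons) on 65 arrays or in any of 1365 fits without 1 mouse. Of 519 values under other settings, 464 kept their direction and side of the threshold, 53 turned sign, none larger than 0.171 in size, and 2 came to pass; the cause was not tested, except that settings without arrays 31 to 33 hold fewer mice. The comparison of adults with juveniles, within-set values and the round were added after seeing the data. Demanding a mean Z above 0, which 4107 of 8448 features had, or the study's selection, left none of the 3 genes. No paired analysis was possible because the replicate numbers follow the order of the samples and are not from the labels; the round of array numbers was fitted as a covariate in its place. The number of arrays, and the difference of Msmo1 and Stard4 between unlabelled array sets, limit what could be seen.

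The settings with a call were array weights, for Msmo1 at 24 against 6 months AL (-0.2, adjusted p = 0.00566 in limma, when 21.7% of features passed, 1829 against 6 on the 65 arrays), and the array round and set without arrays 31 to 33, for Msmo1 in adults against juveniles (-0.105, 89 features passing against 16). That adjusted p of Msmo1 was 0.0569 with the set and without arrays 31 to 33, 0.652 with the set alone, 0.666 without arrays 31 to 33 alone and 0.391 with array weights. Arrays 31 to 33 had a median weight of 0.0966, against 1.04 in the first set. Counts of features passing at 24 against 6 months AL were 0 with centring on feature positions, 1 from the compared groups alone and 3 without array 27.

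Turned signs follow, each as later minus earlier age, CR minus AL, or the difference of that between males and females. With the set and without arrays 31 to 33, Msmo1 had 0.000154 (16 to 24 months AL), 0.0103 (6 to 24 months CR), -0.00458 (diet at 16 months), -0.0279 (sex difference of diet) and -0.0206 (older juveniles), Mvk had 0.00504 (6 to 24 months CR) and 0.00884 (diet at 6 months), and Stard4 had 0.0321 (juvenile to 6 months), -0.0451 (6 to 16 months AL), -0.0102 (6 to 24 months AL), -0.00421 (diet over 3 ages), -0.127 (sex difference of diet) and 0.0137 (adults against juveniles). With the round too, Msmo1 had -0.00252 (diet at 16 months) and -0.0323 (sex difference of diet), Mvk 0.0253 (6 to 24 months CR), and Stard4 0.0255 (juvenile to 6 months), -0.0385 (6 to 16 months AL), -0.00286 (diet at 6 months), -0.0119 (diet over 3 ages), -0.119 (sex difference of diet) and 0.015 (adults against juveniles). With the set alone, Msmo1 had 0.0015 (16 to 24 months AL), 0.0207 (6 to 24 months CR), -0.00525 (diet at 16 months), -0.00507 (diet over 3 ages) and -0.02325 (older juveniles). Without arrays 31 to 33 alone, Msmo1 had -0.017 (sex difference of diet), Mvk 0.00542 (6 to 24 months CR) and 0.00875 (diet at 6 months), and Stard4 0.00725 (6 to 16 months CR), 0.0558 (6 to 24 months CR), -0.01375 (diet at 6 months), -0.0317 (diet over 3 ages), -0.139 (sex difference of diet) and 0.0065 (adults against juveniles). With array weights, Msmo1 had -0.00484 (diet at 16 months), Mvk 0.0396 (diet at 6 months) and 0.0111 (diet at 16 months), and Stard4 -0.000705 (6 to 16 months AL), 0.0203 (6 to 16 months CR), 0.0815 (6 to 24 months CR), -0.0274 (diet at 6 months), -0.0376 (diet over 3 ages), -0.171 (sex difference of diet) and 0.0222 (adults against juveniles). With centring on feature positions, 6 to 24 months CR gave 0.0617 in Msmo1, 0.0545 in Mvk and 0.01715 in Stard4, and Msmo1 had -0.000505 (diet at 16 months) and 0.02835 (sex difference of 6 to 24 months AL). Quantile normalization and scaling by median and MAD each gave 0.00112 for Mvk (diet at 16 months).

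Leaving out 1 mouse turned the sign in 20 results. For Msmo1 the values ran from -0.0135 to 0.0415 (16 to 24 months CR), -0.0819 to 0.00383 (6 to 16 months CR), -0.0679 to 0.0178 (6 to 24 months CR), -0.00725 to 0.0425 (diet at 16 months), -0.0881 to 0.00392 (diet at 6 months), -0.00169 to 0.029 (diet over 3 ages), -0.045 to 0.00675 (juvenile to 6 months), -0.1005 to 0.0235 (sex difference of 6 to 24 months AL) and -0.0144 to 0.0469 (sex difference of diet). For Mvk they ran from -0.059 to 0.00675 (16 to 24 months AL), -0.0618 to 0.0407 (6 to 24 months CR), -0.037 to 0.0193 (diet at 16 months), -0.0815 to 0.036 (diet at 6 months) and -0.0515 to 0.134 (sex difference of 6 to 24 months AL). For Stard4 they ran from -0.1475 to 0.0275 (6 to 16 months CR), -0.0989 to 0.0761 (6 to 24 months CR), -0.0496 to 0.0065 (adults against juveniles), -0.0748 to 0.004 (diet at 16 months), -0.00875 to 0.0547 (diet over 3 ages) and -0.0658 to 0.0611 (sex difference of diet).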
